A study of Mus musculus with 12 samples.

Results

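The tumours described here are the 3 miR-142-5p tumours and the 3 ctrl tumours of a 12-library RNA-Seq series, chosen by their labels alone, and they were compared over all 15459 genes that passed a count filter (at least 10 estimated reads in at least 3 of the 12 libraries, out of 35944 annotated genes). Female BALB/c mice aged 6 to 8 weeks received 100000 cells of 4T1, a mouse mammary carcinoma line of the same strain, under the skin of the right flank. From 5 days later extracellular vesicles (EVs, membrane-bound particles released by cells) were injected beside the tumour at 3 µg every 2 days, and RNA was taken from whole tumours on day 21. The EVs came from MS-1, a mouse endothelial line, and had been electroporated with a double-stranded mimic of miR-142-5p or of cel-miR-67, a nematode miRNA used as control (ctrl). The remaining 6 tumours received EVs with mimics of miR-183-5p or miR-222-3p, 3 tumours each, and serve only as a second reference. All groups therefore carried 4T1 tumours and received electroporated endothelial EVs, and no untreated tumour or tumour given unloaded EVs was analysed here. The polyadenylated RNA of a whole tumour mixes carcinoma cells with stroma and leukocytes, and in such samples fewer cells of a type and less RNA per cell cannot be told apart. Nothing in the labels ties the tumours of a group to separate litters or cages, so every p-value measures the spread between these samples.

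A miRNA guides an Argonaute protein to mRNAs whose 3′ untranslated region (UTR) pairs with its seed, bases 2 to 8 counted from its 5′ end, and target mRNAs are usually destabilised modestly. miR-142-5p is made from a precursor that is characteristic of blood cells, so a mouse tumour also contains the endogenous miRNA in its leukocytes. The measurement was of polyadenylated RNA, which does not report mature miRNAs, and the amount of mimic that reached a tumour cell or a macrophage was not analysed here. The mature sequence is shown because the site classes used later are read from its seed, given in capitals (RefSeq, mmu-miR-142a-5p, GRCm38.p6, chr11:87756867-87756887, plus strand).
miR-142-5p: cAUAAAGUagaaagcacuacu

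A 3′ UTR match was an 8mer (ACTTTATA), a 7mer-m8 (ACTTTAT), a 7mer-A1 (CTTTATA) or a 6mer (CTTTAT), on the strand of the gene. The following matches are those of the 4 genes that had an 8mer, a mean of at least 100 normalised counts and an unadjusted p-value under 0.05 towards lower expression, followed by Nfe2l2, a reported target, and Herpud1, which was higher. Capitals mark the 8mer, the coordinates (GRCm38) are those of its 8 bases, and the lower-case letters are the 11 bases on each side.
Scin, chr12:40059851-40059858, minus strand: ctataagtttaACTTTATAtatttgatagc
Herc6, chr6:57664006-57664013, plus strand: agacttatcagACTTTATAtgtgagatgtt
Zfp846, chr9:20600055-20600062, plus strand: gctgaaacacaACTTTATAccccatcctct
Nampt, chr12:32852578-32852585, plus strand: cagtacctgagACTTTATAcacaggaggtt
Nfe2l2, chr2:75675871-75675878, minus strand: aatgcagaaacACTTTATAagtaactatgc
Herpud1, chr8:94395185-94395192, plus strand: ctaagtgtactACTTTATAtaatcagtgaa

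Before the groups were compared, 1 library was found to stand apart. miR-142-5p tumour 3 held RNA of B lymphocytes at levels absent from the other 11 tumours. Ms4a1, encoding CD20, had 2737 estimated reads there, against 3, 4 and 13 in the ctrl tumours, 6 and 6 in miR-142-5p tumours 1 and 2, and 4 to 8 in the 6 tumours of the other miRNA groups. Pax5, the transcription factor that fixes B cell identity, had 1744 reads in tumour 3 and at most 21 in any other tumour. Immunoglobulin constant genes together held 26716 reads in tumour 3, compared with 398 and 590 in the other miR-142-5p tumours and 434 to 927 in ctrl. Of the 218 immunoglobulin variable genes, 75 reached 10 reads in tumour 3 and at most 2 did so in any other tumour. In total, 59 genes with at least 100 normalised counts stood at least 5-fold above every other tumour in this library, against 0 genes in each of the other 5 libraries of the comparison. Among the 6 tumours of the other miRNA groups the count was 19 in miR-183-5p tumour 3 and at most 1 in the rest.

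The B cell transcripts were accompanied by those of lymphoid tissue, from a list written after these values were seen. Glycam1, a sulphated ligand of L-selectin made by high endothelial venules and also a milk protein, had 2008 reads in tumour 3 and 0 in the other 11 tumours. The chemokines Ccl19, Ccl21a and Cxcl13, which organise lymphoid tissue, had 767, 3559 and 626 reads there. The highest count of any other tumour was 3 for Ccl19, 70 for Ccl21a and 4 for Cxcl13. T cell transcripts were raised less, with Cd3e at 614 reads against 97 to 147 in ctrl and 124 and 153 in the other miR-142-5p tumours. T cell receptor constant genes held 2627 reads in tumour 3, compared with 417 to 586 in ctrl and 525 and 777 in the other miR-142-5p tumours. Macrophage genes did not set the library apart, as Csf1r had 6450 reads there and 4508 to 7176 in the other 5 tumours. Values without this tumour are therefore given beside most of the results that follow. What tissue the library held was not tested.

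**Figure D1:**
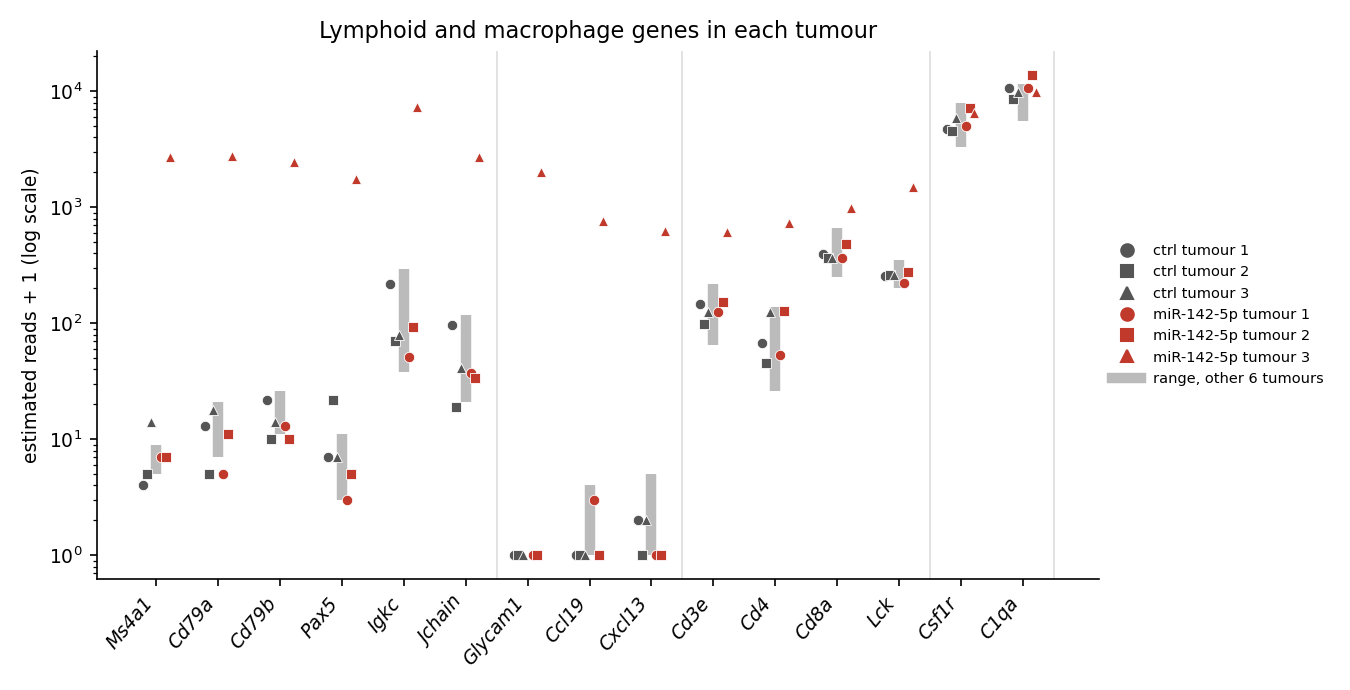
Estimated reads plus 1 on a log axis for B cell, lymphoid tissue, T cell and macrophage genes, with 1 symbol per ctrl or miR-142-5p tumour and a grey bar for the range over the 6 tumours of the other miRNA groups. miR-142-5p tumour 3 lies above every other tumour for each B cell, lymphoid tissue and T cell gene, and within the range of the others for Csf1r and C1qa.

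Sequencing depth was even, at 20285968 to 24370030 estimated reads in these 6 libraries, the last being miR-142-5p tumour 3. Between 14441 and 15437 genes had at least 10 reads, again with tumour 3 highest. The 4T1 and stromal markers that define the tissue were present throughout, with Epcam, a surface protein of carcinoma cells, at 1863 to 3041 normalised counts in ctrl and 1661 to 3119 with miR-142-5p. Among the 11570 genes with a mean of at least 100 normalised counts, the median standard error (SE) of a log2 fold change was 0.17. A 95% interval for such a gene thus spanned about 0.33 on either side.

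To ask which genes distinguished tumours given miR-142-5p EVs from those given ctrl EVs, all 12 libraries were fitted with DESeq2. Mdn1 was the 1 gene that passed an adjusted p-value of 0.05, which is 0.00649% of the 15413 genes with an adjusted p-value. At an unadjusted p-value under 0.05, 352 genes were higher (2.28% of those tested) and 197 were lower (1.28%), 3.56% together. The edgeR quasi-likelihood test called 0 genes after adjustment, with 345 higher and 173 lower at the same unadjusted threshold. No overlap between groups was seen for 483 genes that were higher (3.12% of 15459) and 455 that were lower (2.94%), or 6.07% in all. With 3 tumours per group such separation also arises from the order of values alone. A lack of overlap is therefore not in itself evidence of a difference. The median log2 fold change over all genes was -0.01.

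The excess of genes on the higher side moved with tumour 3. Of the 352 genes on the higher side, 255 had their highest miR-142-5p value in that tumour, and 87 kept an unadjusted p-value under 0.05 without it, although 331 stayed above ctrl. Of the 197 on the lower side, tumour 3 was lowest for 38, all 197 stayed below ctrl without it and 109 kept an unadjusted p-value under 0.05. Without tumour 3 the balance turned to 186 genes higher (1.2%) and 287 lower (1.86%), or 3.06% together, and 3 genes (0.0194%) passed adjustment, namely Mdn1, Wnt9a and the processed pseudogene Gm5537. The last had 0 normalised counts in ctrl tumour 1 and in miR-142-5p tumours 1 and 2, and 562 to 1215 in ctrl tumours 2 and 3 and miR-142-5p tumour 3. DESeq2 withholds a p-value where 1 library dominates the fit of a gene, which it did for 46 genes. The highest value was that of miR-142-5p tumour 3 in 34 of them and that of miR-183-5p tumour 3 in 9. The groups then did not overlap for 7.21% of genes on the higher side and 7.51% on the lower (14.7% in all), as fewer tumours make overlap less likely. Leaving out miR-142-5p tumour 1 instead raised the number of calls to 75 (0.495% of those tested), 65 of them higher, of which 64 were highest in tumour 3. For 17 of the 75 no p-value had been given with all tumours.

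**Figure D2:**
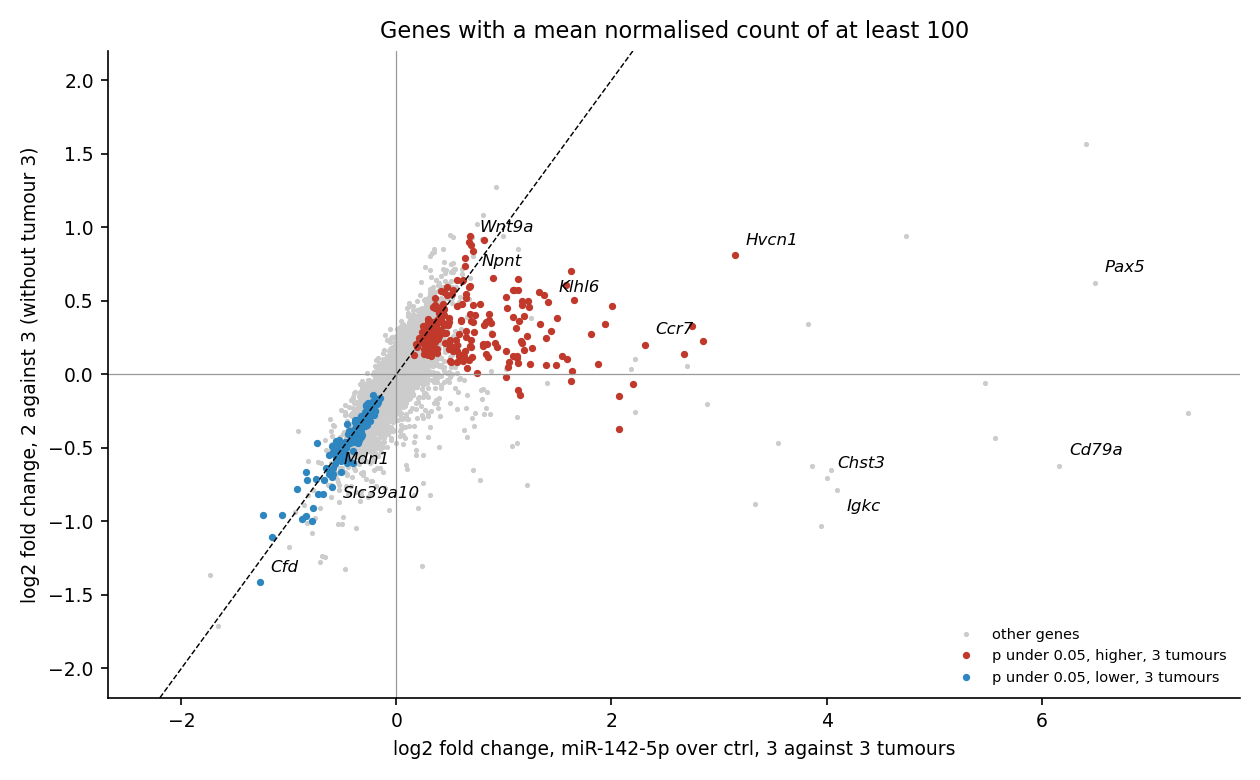
Log2 fold change of miR-142-5p over ctrl tumours with all 3 miR-142-5p tumours (horizontal axis) and without tumour 3 (vertical axis) for 11570 genes with a mean of at least 100 normalised counts, 1 of which lies beyond the vertical axis. Genes that were lower (blue) stay near the dashed line of equal values, while many that were higher (red), and genes without a p-value such as Pax5 and Cd79a, drop towards 0.

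The gene that passed was Mdn1, encoding midasin, a very large AAA ATPase that strips assembly factors from precursors of the large ribosomal subunit in the nucleolus and nucleoplasm (chr4:32657119-32775217, GRCm38, plus strand). Its normalised counts were 1249, 1291 and 1465 in the ctrl tumours and 843, 826 and 988 with miR-142-5p. The groups did not overlap. The 6 tumours of the other miRNA groups lay between 1008 and 1236, above every miR-142-5p tumour and below every ctrl tumour. Against those 6 tumours the miR-142-5p tumours differed by -0.36 (adjusted p = 0.184, DESeq2). The mean was 1335 ± 115 (SD, n = 3) in ctrl and 886 ± 89.1 (SD, n = 3) with miR-142-5p. Mdn1 was lower by a log2 fold change of -0.59 (SE 0.12, adjusted p = 0.0169, DESeq2), and by -0.68 (SE 0.13, adjusted p = 0.00205) without tumour 3. Its 3′ UTR held no match to the miR-142-5p seed. Effective transcript length bore on the size of this difference, since the estimated reads themselves were 1005, 1368 and 1709 in ctrl and 566, 1035 and 1620 with miR-142-5p and overlapped, and without the length offset the difference was -0.43 and not called. The direction was kept in every alternative, but the call was not: the adjusted p-value was 0.522 when only the 2 groups were fitted, 0.067 to 0.248 when a ctrl tumour was left out and 0.0609 without miR-142-5p tumour 2.

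Mdn1 belongs to a list of 33 genes of nucleolar ribosome biogenesis, of which 32 were tested and 28 had a log2 fold change below 0, with a median of -0.13 beside -0.01 for all genes, of which 51.2% were below 0. At an unadjusted p-value under 0.05, 4 were lower, Mdn1 among them, and 0 were higher. The shares over all genes were 1.28% and 2.28%. The list was chosen with earlier results of these data known and its counts include Mdn1, so it is no independent evidence for that call. Utp20, a component of the small subunit processome, stood at 1347, 1471 and 1089.9 normalised counts in ctrl and 1063, 928 and 891 with miR-142-5p (log2 fold change -0.44, SE 0.14, adjusted p = 0.684). Wdr12, of the PeBoW complex that matures the large subunit rRNAs, stood at 1068, 978 and 1045 in ctrl and 693, 816 and 874 with miR-142-5p (-0.37, SE 0.14, adjusted p = 0.921). Noc2l, a nucleolar protein that also binds histones, differed by -0.27 (SE 0.10, unadjusted p-value under 0.05). For these 3 genes the ctrl and miR-142-5p tumours did not overlap, and none of the 3 passed adjustment. In the other miRNA groups Utp20 stood at 996 to 1202, Wdr12 at 782 to 1113 and Noc2l at 2521 to 2851. Without tumour 3 the median was -0.20, 31 of 32 were below 0 and 7 were lower at an unadjusted p-value under 0.05, among them Dkc1, the pseudouridine synthase of box H/ACA particles, at -0.57 (unadjusted p-value under 0.05). Averaged over the list, the miR-142-5p tumours lay at -0.23, -0.20 and -0.04 relative to the ctrl mean on the log2 scale and the ctrl tumours between -0.07 and 0.09, so the groups overlapped at the level of the list. Cytosolic ribosomal protein genes, the products that these factors assemble, had a median of 0.02 (0.06 without tumour 3) over 34 members, with 0 at an unadjusted p-value under 0.05.

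Further genes with lower values in miR-142-5p tumours held to that side with and without tumour 3. The 12 protein-coding genes with the lowest fold changes (mean of at least 100 normalised counts, unadjusted p-value under 0.05, no overlap) ranged from -0.92 to -0.59, and none passed adjustment. In all, 110 genes met these criteria on the lower side and 106 on the higher. Nhej1, which joins broken DNA ends with XRCC4, stood at 115, 164 and 155 in ctrl and 55.6, 115 and 60.3 with miR-142-5p (-0.92, SE 0.31, adjusted p = 0.684). Ccne2, encoding cyclin E2, which drives entry into S phase, stood at 327, 429 and 379 in ctrl and 229, 202 and 277 with miR-142-5p (-0.68, SE 0.23, adjusted p = 0.778). Slc39a10, a zinc importer, had the lowest p-value of the 12, with 883, 1048 and 1076 in ctrl and 558, 677 and 750.1 with miR-142-5p (-0.60, SE 0.16, adjusted p = 0.439). Without tumour 3 its difference was -0.70 (adjusted p = 0.169). In the other miRNA groups Nhej1 stood at 85.7 to 128, Ccne2 at 224 to 370 and Slc39a10 at 673 to 962. These ranges overlapped with those of ctrl and of miR-142-5p.

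Others of the 12 act in metabolism or signal between cells. Upp1, a uridine phosphorylase, differed by -0.63, and Ak4, a mitochondrial adenylate kinase, by -0.63. Hp, encoding the haemoglobin scavenger haptoglobin, stood at 632, 554 and 610.2 in ctrl and 364, 395 and 408 with miR-142-5p (-0.62, SE 0.22, adjusted p = 0.815), and the other miRNA groups reached 436 to 864, above every miR-142-5p tumour. Nexn, an actin-binding protein, differed by -0.59, and the miR-142-5p tumours lay below all 9 other tumours. Gbp4, a guanylate-binding protein induced by interferon gamma, differed by -0.62 from a high level (10539 to 17323 in ctrl and 8362 to 9789 with miR-142-5p). Chac1 (-0.73), which degrades glutathione in the integrated stress response, Ccnb1ip1 (-0.67) and Wdr78 (-0.88) were also among the 12. Without tumour 3 their fold changes ranged from -0.98 to -0.53, all with an unadjusted p-value under 0.05 except Chac1 (unadjusted p-value above 0.05). For Upp1, Ak4, Gbp4, Chac1 and Wdr78 the other miRNA groups overlapped with the miR-142-5p tumours.

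Of the 12 genes with the highest fold changes by the same criteria, every one had its highest value in tumour 3. Hvcn1, a proton channel abundant in B cells and phagocytes, stood at 69.2, 46.7 and 65.6 normalised counts in ctrl and 125, 88.2 and 1397 with miR-142-5p (log2 fold change 3.15, SE 0.88, adjusted p = 0.451). Klhl6, a B cell adaptor of a ubiquitin ligase, stood at 263, 289 and 256 in ctrl and 332, 425 and 1393 with miR-142-5p (1.41, SE 0.41, adjusted p = 0.463). Pou2f2, encoding the B cell transcription factor OCT2, differed by 1.32. Prkcq, the protein kinase C of T cell activation, and Tnfrsf13b, the TACI receptor of B cells, differed by 1.18 and 1.17. Cnr2, the cannabinoid receptor of leukocytes, and Myo1g, a haematopoietic myosin, differed by 1.13 and 1.03. Ms4a4b (1.24), Rasgrp2 (1.38), Rhof (1.13), Ephx1 (1.02) and Gm45062 (0.86) were the rest. In miR-142-5p tumours 1 and 2 alone these 12 also lay above all ctrl tumours, as the rule requires, with fold changes of 0.81 for Hvcn1, 0.49 for Klhl6, 0.56 for Pou2f2, 0.57 for Cnr2 and 0.45 for Myo1g. These 5 and Rhof (0.65) kept an unadjusted p-value under 0.05, and the others, from 0.17 for Prkcq to 0.54 for Rasgrp2, did not. None passed adjustment with or without tumour 3.

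Removing tumour 3 brought forward other genes, described here by a rule added after the values were seen. Wnt9a, a secreted Wnt ligand (chr11:59306928-59333552, GRCm38, plus strand), stood at 273, 231 and 328 normalised counts in ctrl and 493, 542 and 300.1 in miR-142-5p tumours 1 to 3. The first 2 miR-142-5p tumours lay above all ctrl tumours and above the 229 to 329.8 of the other miRNA groups, and tumour 3 lay within both ranges. The log2 fold change was 0.68 (SE 0.23, adjusted p = 0.778) with all tumours and 0.90 (SE 0.20, adjusted p = 0.0263) without tumour 3. Npnt, encoding the basement membrane protein nephronectin, stood at 6180.1, 7003 and 8383 in ctrl and 12124, 14311 and 8429 with miR-142-5p (0.69 with and 0.88 without tumour 3, the second with an adjusted p = 0.401). Lrrc75b (0.94), Zdhhc14 (0.91), Rflnb (0.84) and Nckap5l (0.79) followed on the same side without tumour 3, and differed by 0.69, 0.81, 0.71 and 0.63 with it. Gzme, a granzyme of cytotoxic lymphocytes, stood at 1427 and 1491 in miR-142-5p tumours 1 and 2 against 415 to 1321 in ctrl, but at 209 in tumour 3, the lowest of the 12 tumours. Its difference was 0.35 (unadjusted p-value above 0.05) with all tumours and 0.83 without tumour 3. Tmem37 (0.76, or 0.52 with all tumours), Gm21992 (1.09, or 0.80) and Hvcn1, described above, complete the 10 on that side. On the lower side were Cfd, encoding complement factor D of adipocytes and macrophages (-1.41), Depp1 (-1.24), Gas2 (-1.02), Mbnl3, a splicing regulator (-0.97), Sorbs2 (-0.92), Cmah (-0.91), Gm5141 (-0.80) and Hells, a chromatin remodeller of dividing cells (-0.81), beside Wdr78 and Ccne2. With all tumours Depp1, Gas2, Mbnl3, Sorbs2, Gm5141 and Hells differed by -0.67, -0.55, -0.50, -0.07, -0.38 and -0.45, each with an unadjusted p-value above 0.05. For Sorbs2, Cmah and Mbnl3 tumour 3 was the highest of the miR-142-5p tumours, at 361, 764 and 240.2 against at most 132, 191 and 117 in the other 2. Cmah stood at 0.20 with all 3 tumours, so its direction depended on that library. Without tumour 3, 124 genes on the higher side and 186 on the lower met the criteria of count, p-value and no overlap.

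Gene lists were next read as a whole, since small changes shared by a pathway can escape a test of single genes. Of 56 lists, 55 had tested members (the list of nuclear long RNAs was not analysed here, nor was Mir142hg). For all 55, the list averages of the miR-142-5p tumours overlapped with those of the ctrl tumours. A total of 24 lists had at least 1 member at an unadjusted p-value under 0.05, and 38 had a median log2 fold change between -0.1 and 0.1. Members of a list move together within a tumour, so that a count of members on 1 side is not a count of independent events.

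Among lists of proliferation and metabolism, several had a median below 0. DNA replication genes had a median of -0.20, with 24 of 25 members below 0 and 0 at an unadjusted p-value under 0.05. Mcm6, a subunit of the replicative helicase, stood at 4197, 6358 and 3834 in ctrl and 3893, 2653 and 4302 with miR-142-5p (-0.41, SE 0.21, unadjusted p-value above 0.05). Without tumour 3 all 25 were below 0, and Mcm2 (-0.61), Mcm6 (-0.55) and Pola1 (-0.48), the catalytic subunit of DNA polymerase alpha, had an unadjusted p-value under 0.05. The list average nevertheless ranged from -0.32 to 0.30 over the ctrl tumours, with -0.05, -0.52 and -0.02 with miR-142-5p. Genes of mitosis and the cell cycle at large did not share this side (median 0.06, 16 of 25 above 0, or 0.05 and 13 of 25 without tumour 3). Mki67, the proliferation marker, differed by 0.11 (SE 0.22), and by -0.06 without tumour 3. Genes of cholesterol and fatty acid synthesis had a median of -0.20 (-0.22 without tumour 3) and 22 of 23 members below 0. Elovl6, which elongates palmitate, stood at 949, 1437 and 694 in ctrl and 582, 622 and 832 with miR-142-5p (-0.60, SE 0.28, unadjusted p-value under 0.05). Ctrl tumour 2 was the highest tumour for Elovl6, Mcm2 and Mcm6, and the list average of lipid synthesis was 0.44 there against -0.06 and -0.38 in the other ctrl tumours.

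Glycolysis genes had a median of -0.14 (-0.07 without tumour 3) with 19 of 20 below 0 (16 without tumour 3), and 0 at an unadjusted p-value under 0.05. Here the miR-142-5p tumours were split, with list averages of 0.15, -0.38 and -0.32 relative to the ctrl mean. Slc2a1, the glucose transporter GLUT1, showed the same order, at 8174, 3629 and 4481 with miR-142-5p and 6535 to 7207 in ctrl. The hypoxia list (median -0.07, and -0.10 without tumour 3) followed it, at 0.19, -0.50 and -0.27. Within that list Ankrd37, a target of HIF-1, stood at 508, 235 and 343 with miR-142-5p and 814, 462 and 549 in ctrl (-0.75, SE 0.27, adjusted p = 0.861), and Car9, the carbonic anhydrase of hypoxic carcinoma cells, differed by -0.41 (unadjusted p-value under 0.05). The groups overlapped for both. With tumour 3 left out they differed by -0.71 and -0.43, the latter with an unadjusted p-value above 0.05. Oxidative phosphorylation genes encoded in the nucleus had a median of -0.03 with 6 of 29 above 0, but of 0.04 with 16 of 29 above 0 without tumour 3, so that the direction of this list turned with 1 library.

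Interferon-stimulated genes were on the lower side in full, with 0 of 28 members above 0, a median of -0.22 and 0 members at an unadjusted p-value under 0.05. Gbp3 came nearest, with 5605, 7649 and 4620 in ctrl and 4597, 4360 and 4231 with miR-142-5p (-0.44, SE 0.23, unadjusted p-value above 0.05). The list average was -0.01, -0.29 and -0.24 with miR-142-5p, but 0.54 in ctrl tumour 2 and -0.15 and -0.38 in the other ctrl tumours, so the ctrl group spanned the miR-142-5p group. Without tumour 3 the median was -0.21 and 4 members lay above 0. The difference in this list was thus smaller than the spread between ctrl tumours. Genes of MHC class I presentation had a median of -0.05 with 2 of 15 above 0, which turned to 0.05 with 10 of 15 above 0 when tumour 3 was left out. Those of NF-kappaB and TNF response had a median of -0.07, and of -0.08 without that tumour.

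**Figure D3:**
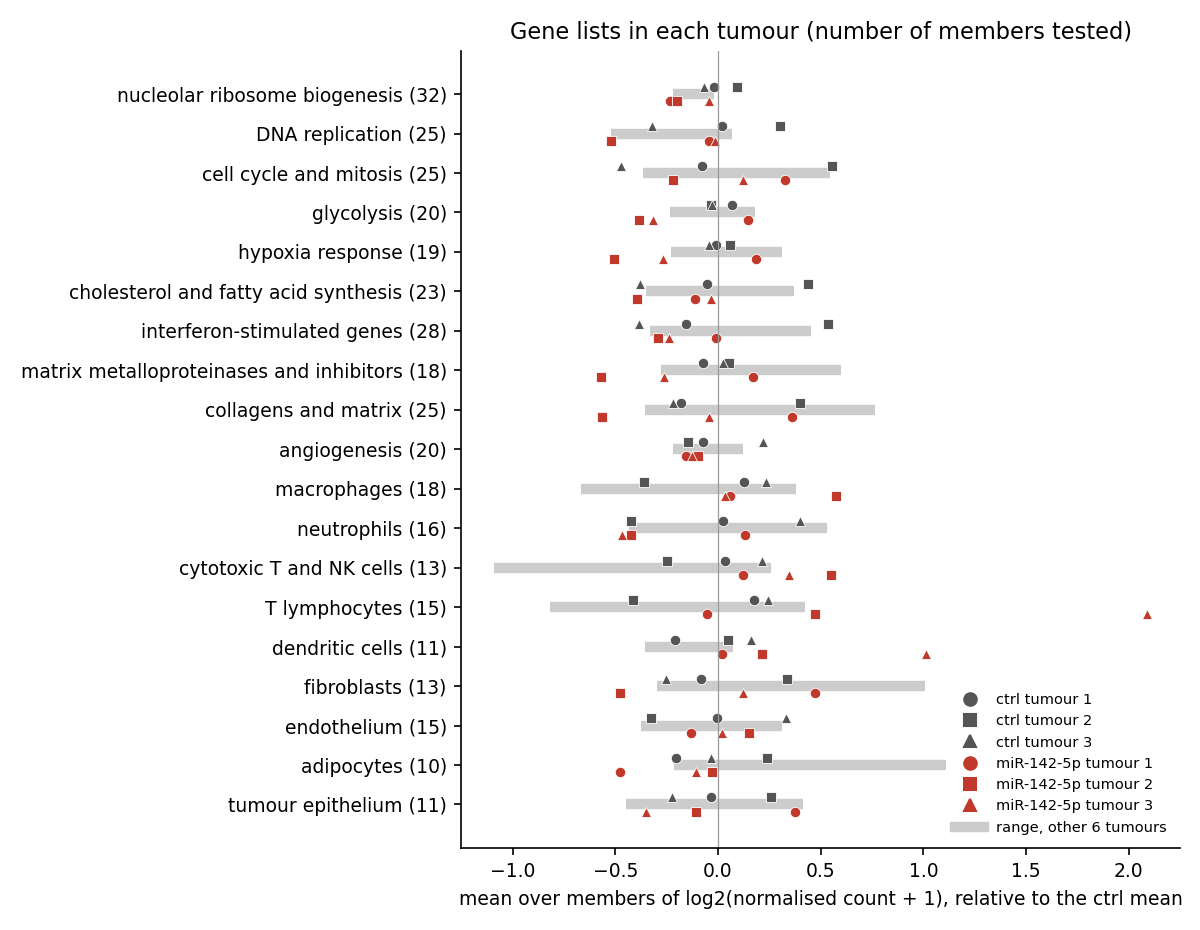
Mean over the members of a list of log2(normalised count + 1), relative to the mean of the ctrl tumours, for 19 lists, with 1 symbol per ctrl or miR-142-5p tumour, a grey bar for the range of the other 6 tumours and the number of members tested in brackets. The T lymphocyte average of miR-142-5p tumour 3 lies 2.09 above the ctrl mean, and every list shows overlap between the groups.

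Cell type lists were then read, since a whole tumour can change in composition. Of 15 T lymphocyte genes, 10 were higher at an unadjusted p-value under 0.05 (DESeq2), beside 2.28% of all genes, with a median of 1.12. With that tumour left out the median was 0.24 and 0 of 15 passed that threshold. Lat, an adaptor of the T cell receptor, stood at 76.6, 55.5 and 97.3 in ctrl and 71.1, 117 and 431 with miR-142-5p. Cd3d, Icos and Cd2 differed by 1.22, 1.19 and 1.71, and by 0.50, 0.39 and 0.00 without tumour 3. Summed over the list, T cell genes reached 77.6, 116 and 379 TPM (a level per length and depth) with miR-142-5p and 80.6 to 104 in ctrl. Of 12 B lymphocyte and plasma cell genes, 8 were tested and 3 had a p-value, since Ms4a1, Mzb1 and Fcrla, among others, were above 10 reads in too few tumours. Ighm, the IgM heavy chain, stood at 436, 438 and 252 in ctrl and 264, 413 and 4044 with miR-142-5p (2.07, or -0.15 without tumour 3). The 10 genes that varied most among the miR-142-5p tumours, namely Ccl21a, Cd79a, Cd79b, Pax5, Spib, Jchain, Fcer2a, H2-Ob, Atp2a3 and Cd22, were each highest of all 12 tumours in tumour 3. Of these, Cd79a, Cd79b, Pax5 and Jchain belong to the B lymphocyte and plasma cell list. For Cd79a, a signalling chain of the B cell receptor, the values were 4.43, 11.2 and 2556.

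Dendritic cell and cytotoxic lymphocyte genes were less uniform. The 11 dendritic cell genes tested had a median of 0.20 (0.05 without tumour 3), with 7 above 0 and 4 below, among them Itgax (-0.19) and Bst2 (-0.18). At an unadjusted p-value under 0.05, 3 were higher, beside 2.28% of all genes, and 0 without tumour 3. Flt3 and Siglech, of conventional and plasmacytoid dendritic cells, and Ccr7, the receptor by which cells home to lymph nodes, differed by 1.54, 1.90 and 2.31, and by -0.13, 0.33 and 0.20 without tumour 3. Ccl22, a chemokine of mature dendritic cells, stood at 701 in tumour 3 and at 58.7 to 106 in the other 5 tumours. In contrast, Tbx21, the transcription factor T-bet of type 1 lymphocytes, was higher in all 3 miR-142-5p tumours, at 47.6, 40.3 and 53.5 against 33.6, 23.4 and 22.1 in ctrl (0.85, SE 0.40, unadjusted p-value under 0.05), and tumour 3 did not stand out. Without that tumour the difference was 0.74 (unadjusted p-value above 0.05). Eomes, its close relative, stood at 45.2, 103 and 203 with miR-142-5p and 45.7 to 63.1 in ctrl (1.16, or 0.49 without tumour 3). The 13 cytotoxic T and NK cell genes had a median of 0.32, and of 0.34 without tumour 3, with 2 and 0 members at an unadjusted p-value under 0.05.

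Macrophage genes had a median of 0.21 (0.32 without tumour 3), with 15 of 18 above 0 and 0 at an unadjusted p-value under 0.05. Their summed level was 5705, 9657 and 6756 TPM with miR-142-5p and 4325 to 7169 in ctrl, and tumour 2 was the highest of the 6. Csf1r, the receptor for the macrophage growth factor CSF1, stood at 5402, 4831 and 6187 in ctrl and 5508, 8015 and 5967 with miR-142-5p (0.25, SE 0.22, or 0.31 without tumour 3). Adgre1, encoding F4/80, differed by -0.01 and Mrc1, the mannose receptor, by 0.19, and by 0.03 and 0.30 without tumour 3. Arg1, the arginase of alternatively activated macrophages, stood at 8825, 6492 and 7793 in ctrl and 15793, 8715 and 6287 with miR-142-5p, so the group held both the highest and the lowest value of the 6 (0.41, SE 0.27, unadjusted p-value above 0.05). Without tumour 3 the difference was 0.67 (SE 0.24, unadjusted p-value under 0.05), which did not pass adjustment, and without miR-142-5p tumour 1 it was -0.038 (adjusted p = 0.999, DESeq2). The higher mean of Arg1 thus rested on that 1 tumour. Nos2, the inducible nitric oxide synthase of classical activation, stood at 2954, 623 and 1078 with miR-142-5p and 1617 to 2813 in ctrl (-0.40, SE 0.58). Leaving out 1 miR-142-5p tumour at a time moved this difference to -1.26 (adjusted p = 0.0971, DESeq2) without tumour 1, -0.02 without tumour 2 and -0.19 without tumour 3. Il4ra, the receptor chain through which IL-4 acts, was higher in each miR-142-5p tumour, at 4032, 3633 and 4149 against 3234 to 3356 in ctrl (0.25, SE 0.09, unadjusted p-value under 0.05), and differed by 0.21 without tumour 3 (unadjusted p-value above 0.05). The other miRNA groups ranged from 3305 to 4062 for Il4ra. The list of alternative activation, which holds Arg1, Mrc1 and Il4ra, had a median of 0.01 (0.08 without tumour 3), with 9 of 17 above 0.

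Neutrophil genes had a median of -0.28 (-0.17 without tumour 3) and 13 of 16 below 0, with 0 at an unadjusted p-value under 0.05. Their summed level was 2249, 1165 and 1244 TPM with miR-142-5p and 1585 to 2317 in ctrl. Endothelial genes had a median of 0.05 (-0.01 without tumour 3) and Pecam1, encoding CD31, differed by 0.15 (SE 0.18, or 0.14 without that tumour). Fibroblast genes had a median of 0.08 (0.03 without tumour 3), and the averages of miR-142-5p tumours 1 and 2 were 0.47 and -0.48 relative to the ctrl mean. Adipocyte genes had a median of -0.56 (-0.81 without tumour 3) over 10 members, most of them at low counts. Fabp4, the member with the highest level, stood at 78.2, 52.0 and 68.4 TPM in ctrl and 47.7, 79.7 and 54.3 with miR-142-5p. It differed by -0.13, and by -0.01 without tumour 3. Pparg, the regulator of adipocyte differentiation, stood at 38.7, 37.2 and 69.4 in ctrl and 16.1, 19.8 and 9.69 with miR-142-5p (-1.68, SE 0.65, unadjusted p-value under 0.05), and Cidec, of the lipid droplet, differed by -1.78 (adjusted p = 0.921). Cfd differed by -1.27 (unadjusted p-value under 0.05). With tumour 3 left out Pparg, Cidec and Cfd differed by -1.44, -1.46 and -1.41, each with an unadjusted p-value under 0.05. Plin4, another lipid droplet gene, was the exception. It was estimated at 0 reads in all 3 ctrl tumours and at 14, 40 and 34 with miR-142-5p, at least 10.2-fold higher against a floor of 3 normalised counts per tumour, while the other miRNA groups ranged from 0 to 77 reads.

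Single members of the other lists reached an unadjusted p-value under 0.05 without passing adjustment. Cat, encoding catalase, which degrades hydrogen peroxide, was higher in every miR-142-5p tumour, at 1664, 1710.2 and 1822 against 1289, 1407 and 1204 in ctrl (0.41, SE 0.11, adjusted p = 0.451). In the other miRNA groups Cat stood at 1359 to 1652. Col14a1, a collagen associated with fibril surfaces, stood at 522, 498 and 494 against 352, 381 and 413 (0.40, SE 0.13, adjusted p = 0.684), and above the 317 to 409 of the other miRNA groups. Both held without tumour 3, at 0.38 and 0.42. Ptger2, a receptor for prostaglandin E2, stood at 99.6, 112 and 105 against 69.8, 62.5 and 74.1 (0.62 with and without tumour 3, unadjusted p-value under 0.05), and its relative Ptger4 differed by 0.69 with tumour 3 highest, and by 0.36 without it. Herpud1, of endoplasmic reticulum protein degradation, stood at 1171, 1021 and 1153 against 754 to 915 (0.41), and Sesn1, a p53 target, differed by 0.42. Without tumour 3 these values were 0.39 and 0.40, both with an unadjusted p-value above 0.05. Il33, an alarmin cytokine, differed by 0.86 and by 0.41 without tumour 3.

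Members of signalling lists pointed both ways. The Notch ligands Dll1 and Dll4 were lower, Dll1 at 259, 242 and 199 against 339, 328 and 365 in ctrl (-0.56, SE 0.18, adjusted p = 0.649) and Dll4, a ligand of sprouting vessels, by -0.35 (unadjusted p-value under 0.05), without overlap for either. They differed by -0.46 and -0.44 without tumour 3, again with an unadjusted p-value under 0.05. Of 14 Notch genes, 8 were above 0, and 6 without tumour 3. In the Wnt list, Lef1 (1.65) and Tcf7 (1.12), transcription factors of the pathway that T cells also use, were highest in tumour 3 and differed by 0.50 and 0.12 without it. Pik3cg and Pik3cd, the leukocyte isoforms of PI3 kinase, differed by 0.58 and 0.55, and by 0.28 and 0.24 without tumour 3, while Mtor differed by -0.47 (unadjusted p-value under 0.05) and by -0.56 without it. Stat4 differed by 1.24, and by 0.19 without tumour 3. Drosha, the nuclease that releases miRNA precursors, stood at 2202, 2250.5 and 2312 against 2459, 2494 and 2713 in ctrl and 2411 to 2559 in the other miRNA groups, so that the miR-142-5p tumours were the lowest of the 12 (-0.18, SE 0.08, or -0.20 without tumour 3, both with an unadjusted p-value under 0.05). Txnrd1, the cytosolic thioredoxin reductase, and Tfrc, the transferrin receptor, differed by -0.22 and -0.32, and by -0.21 (unadjusted p-value above 0.05) and -0.41 without tumour 3. Among very large scaffold proteins Utrn differed by -0.25 and Herc2 by 0.29, and by -0.30 and 0.35 without that tumour, while Herc2 was at -0.06 without the length offset.

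To examine whether mRNAs with sites for miR-142-5p were lower, genes were grouped by their best seed match in the 3′ UTR. The 694 genes with an 8mer had a median log2 fold change of -0.02, the 1383 with a 7mer-m8 one of -0.02, the 1015 with a 7mer-A1 one of -0.02 and the 2222 with a 6mer one of -0.02, beside 0.00 for 9274 genes with none. Of the genes with an 8mer, 55.8% were below 0, compared with 49.2% of those with none. At an unadjusted p-value under 0.05, 7 genes with an 8mer were lower (1.01%) and 15 were higher (2.16%), near the 1.25% and 2.44% of genes with none and the 1.28% and 2.28% of all genes tested. Without tumour 3 the medians were -0.06 for the 8mer and 0.01 for no match. By tumour, the 8mer median relative to the ctrl mean was -0.07, -0.01 and 0.03 in miR-142-5p tumours 1 to 3. The same quantity for each ctrl tumour against the other 2 was -0.12, 0.00 and 0.14. The spread among ctrl tumours was thus larger than the difference between groups.

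The classes also differed in a property other than the site. The median 3′ UTR was 2562.5 bases for genes with an 8mer and 588.5 for those with none. Genes with a 7mer-m8 match to miR-183-5p, which was not given to these tumours, had a median of -0.01, and those with one to miR-222-3p also of -0.02, with median 3′ UTRs of 2323.5 and 2409.5 bases. Without tumour 3 these medians were -0.05 and -0.05, the same as the -0.05 of the 7mer-m8 class of miR-142-5p. Genes with an 8mer had a median of -0.02 for miR-183-5p (55.6% below 0) and of 0.004 for miR-222-3p (48.8% below 0). Their median 3′ UTRs were 2404.5 and 2969.5 bases. Without tumour 3 these 8mer medians were -0.07 and -0.06, beside -0.06 for the 8mer of miR-142-5p. The part of 3′ UTR length in these shifts was not tested.

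**Figure D4:**
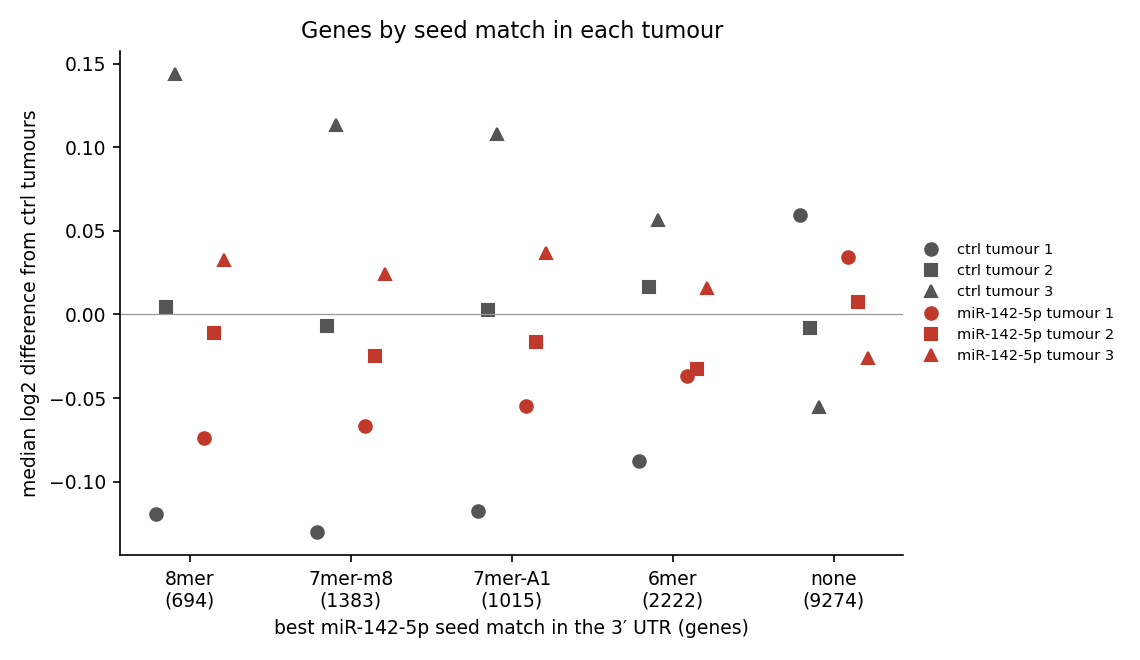
Median log2 difference from ctrl for genes in 5 classes of miR-142-5p seed match (gene numbers in brackets), by tumour, with each miR-142-5p tumour set against the mean of the 3 ctrl tumours and each ctrl tumour against the other 2. The ctrl tumours span -0.12 to 0.14 for the 8mer class and the miR-142-5p tumours lie inside that span.

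Genes printed above with their sites illustrate the same range. Scin, an actin-severing protein, reached 394.8 in ctrl tumour 2 and at most 175 in the other 5 tumours (-0.79, SE 0.37, or -0.996 without tumour 3), and the groups overlapped. Nampt, the rate-limiting enzyme of NAD salvage, stood at 6103, 6901 and 6254 in ctrl and 5872, 4753 and 5148 with miR-142-5p (-0.29, SE 0.13, unadjusted p-value under 0.05). Zfp846 differed by -0.29 without overlap, and Herc6, an interferon-induced ubiquitin ligase, by -0.43. With tumour 3 left out Zfp846 differed by -0.33, while Nampt (-0.27) and Herc6 (-0.46) had an unadjusted p-value above 0.05. Socs1 and Nfe2l2 are among the genes reported as targets of miR-142-5p. Socs1, an inhibitor of cytokine signalling, stood at 329, 355 and 145 in ctrl and 234, 219 and 171 with miR-142-5p (-0.41, 95% interval -1.09 to 0.27, or -0.29 without tumour 3). Nfe2l2, encoding NRF2, differed by 0.02 (95% interval -0.22 to 0.26, or 0.09 without tumour 3) although it carries the 8mer shown. Socs1 held a 7mer-m8, and the groups overlapped for both genes.

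Because ctrl tumours varied widely, the miR-142-5p tumours were also set against the 6 tumours given EVs with another miRNA, in the same fit. Here 6 genes passed adjustment (0.0389% of 15413 genes) and 973 had an unadjusted p-value under 0.05 (6.31%), 603 of them higher (3.91%) and 370 lower (2.4%). The edgeR quasi-likelihood test called 0. Of the 6, Tspan32 (2.76, adjusted p = 0.0373), Blnk (2.29, adjusted p = 0.0373) and Izumo1r (3.73, adjusted p = 0.0448) are genes of leukocytes, Blnk being the adaptor below the B cell receptor and Izumo1r the folate receptor of regulatory T cells. They had 266, 807 and 184 normalised counts in tumour 3 and at most 36.7, 139 and 16.6 in the other 11 tumours. Without tumour 3 they differed by 0.92, 0.75 and 1.22, and none of these passed adjustment. The pseudogene Gm7666 was also called.

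The 2 genes called on the lower side were the matrix metalloproteinases Mmp3 and Mmp13, stromelysin and collagenase, which degrade extracellular matrix. Mmp3 stood at 2429, 1581 and 2064 with miR-142-5p and 2235 to 7307 in the other miRNA groups (-1.17, SE 0.24, adjusted p = 0.00842), with 2741 to 3006 in ctrl. Mmp13 stood at 5175, 3153 and 4311 with miR-142-5p and 5045 to 12767 in the other miRNA groups (-0.93, SE 0.21, adjusted p = 0.0373), with 4601 to 6034 in ctrl. Against ctrl these genes differed by -0.49 (unadjusted p-value above 0.05) and -0.28 (unadjusted p-value above 0.05). Without tumour 3 the differences were -1.18 and -0.95 and the adjusted p-values 0.0999 and 0.238. Wnt9a and Gm7666 were then the 2 genes called (0.0129% of those tested, with 1.89% higher and 1.86% lower at an unadjusted p-value under 0.05, 3.75% in all), Wnt9a at 0.88 (adjusted p = 0.00775). Hp (-0.78), Fads3, a member of the fatty acid desaturase family (-0.86), Rusc2 (-0.61) and Ttc23 (-0.47) were lower than in the other miRNA groups with adjusted p-values between 0.0596 and 0.0845, and also lower than in ctrl without overlap (-0.62, -0.51, -0.43 and -0.42). Klhl6, Cpne5 and Col14a1 were the next on the higher side, Col14a1 at 0.45 (adjusted p = 0.0795).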

How the data were processed

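The labels and methods name miRNeasy extraction and the TruSeq Stranded mRNA kit. The authors quantified each library with Salmon against GRCm38 transcripts, and the deposited values are, per transcript, an estimated count (expected count) of reads made by the authors with Salmon, the TPM and an effective length. The study's text refers to Ensembl release 90 while identifiers in the deposited values carry release 97, and GENCODE M21 was used here to assign transcripts to genes (116710 of 118783, with 0.633% to 0.671% of reads unassigned).

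Gene sums of the estimated counts, as whole numbers, entered DESeq2 1.42.0 (R 4.3.3) with the mean effective length as offset, all 12 libraries (20285968 to 27021401 reads) and group as the factor. Wald tests gave unshrunken log2 fold changes of miR-142-5p over ctrl, and Benjamini-Hochberg adjusted values under 0.05 were called. Unadjusted p-values are from this model as well. Floors cover counting error only. No pair of libraries within a group agreed within sampling noise (chi-square per degree of freedom of at least 13.7). In data simulated for miR-142-5p against ctrl (15320 genes), DESeq2 recovered 89% of 100 genes changed by a log2 of 1 and 99% of 100 changed by 2. With edgeR 4.0.16 these shares were 76% and 99%. Of 15120 genes simulated without a change, DESeq2 called 0.298% and edgeR 0.0529%. The DESeq2 share was above the 0.00649% of genes called against ctrl in the data. These shares are not fully alike, since the simulation also held changed genes.

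The members and the 56 lists were chosen with earlier results of these data known, and lists are described without a test. Named genes were all called genes, the 12 protein-coding genes furthest above ctrl and the 12 furthest below (unadjusted p under 0.05, mean of at least 100 normalised counts, no overlap), 12 preset genes, up to 4 members per list with the lowest p under 0.05, 6 per direction among the calls made without the most influential tumour, the 10 most variable among miR-142-5p tumours and 6 per direction against the other miRNA groups. The 10 largest changes per direction without tumour 3 and the lymphoid tissue list were added after seeing the data. A few genes that these rules name are not reported here. Alternatives were an edgeR quasi-likelihood test, TMM scaling within DESeq2, dropping the count filter, requiring 50 reads in every library, dropping the length offset, fitting 2 groups alone, a replicate block and omission of each tumour. Tables and plots used Python 3.11.15, numpy 2.4.6, pandas 2.3.3 and matplotlib 3.10.9.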

Additional observations from a re-analysis of the deposited data

How the results depend on the processing

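Against ctrl, the number of genes called was 0 with the edgeR quasi-likelihood test and 0 without the length offset (518 and 540 genes at an unadjusted p-value under 0.05), 1 under the other alternatives, and 0 to 75 when 1 tumour was left out. The 75 arose without miR-142-5p tumour 1, when 23 were called without tumour 2 and 3 without tumour 3. The 1 gene called was not Mdn1 when only the 2 groups were fitted, under the replicate block or without ctrl tumour 2 or 3. The number at an unadjusted p-value under 0.05 was 354 with at least 50 reads in every library, 352 when only the 2 groups were fitted, and 399 to 887 when 1 tumour was left out. Against the other miRNA groups, 1 gene was called with at least 50 reads in every library, 0 with edgeR, 2 without a count filter and 2 to 314 when 1 tumour was left out. The causes of these shifts were not tested, except that the stricter filter tests fewer genes.

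Of the named genes, Herc2 turned to -0.0571 without the length offset, and 22 changed sign in some fit that left out 1 tumour. Their log2 fold changes ranged as follows: Adgre1 -0.15 to 0.24, Arg1 -0.038 to 0.67, Atp2a3 -0.20 to 3.42, Ccn2 -0.87 to 0.15, Cd79a -0.62 to 6.74, Cd79b -0.43 to 6.14, Chst3 -0.71 to 4.58, Cmah -0.91 to 0.58, Epcam -0.20 to 0.24, Fcer2a -0.47 to 4.11, Flt3 -0.13 to 2.04, Gzme -0.002 to 0.87, H2-Ob -0.65 to 4.61, Ighm -0.15 to 2.57, Izumo1r -0.13 to 2.93, Jchain -0.62 to 4.79, Mki67 -0.0556 to 0.39, Mrc1 -0.0934 to 0.40, Nfe2l2 -0.07 to 0.12, Pecam1 -0.0224 to 0.37, Sorbs2 -0.92 to 0.30, Spib -0.0621 to 6.05. Replicate numbers did not pair the tumours (same-numbered correlations of deviations 0.27, -0.35 and 0.19). With a replicate block, 1 gene (Plin4) was called against ctrl, 418 had an unadjusted p-value under 0.05 and 6 were called against the other miRNA groups. Under alternatives that kept all tumours, 378 list medians moved by less than the spread between replicates and 7 by more. In fits that left out 1 tumour, 281 moved by less and 49 by more, and 14 list medians changed sign without tumour 3. The number of tumours sets the precision, with a 95% half-width of 0.33 for genes at 100 counts or more.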

Other observations

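Among the gene groups outside the comparisons above, 4 of those with medians near 0 are given here. Genes of extracellular vesicle formation and endocytosis had a median log2 fold change of 0.00 over 22 members, those of heat shock one of 0.05 over 13, those of epithelial-mesenchymal transition one of -0.01 over 19 and those of TGF-beta ligands and response one of -0.02 over 22, with 0 members of these 4 lists at an unadjusted p-value under 0.05 in DESeq2. With tumour 3 left out these medians were 0.05, 0.07, 0.02 and 0.07. Matrix metalloproteinases and their inhibitors had a median of -0.20, with 15 of 18 below 0 (-0.12 and 13 of 18 without tumour 3), and list averages of 0.17, -0.57 and -0.26 in miR-142-5p tumours 1 to 3. Collagens and matrix genes ranged over the same tumours from 0.36 to -0.56, and over ctrl from -0.22 to 0.40. Lymphatic endothelial genes summed to 324.8 TPM in tumour 3 and 4.6 to 17.9 in the other 5 tumours. Ccl21a alone held 315.4 TPM of the sum in tumour 3, so the contrast was mostly that of this chemokine.

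miR-142-5p tumour 1 differed from tumours 2 and 3 in several genes called only when it was left out. Ccn2, a secreted matricellular protein, stood at 4990.4 normalised counts there and at 1669 and 1618 in tumours 2 and 3, with 2887 to 3107 in ctrl. Il1f9, an interleukin-1 family cytokine, stood at 155, 79.3 and 76.5 against 129.9 to 242 in ctrl, and Ciart, a repressor of the circadian clock, at 303, 107 and 149 against 271 to 332. On the higher side of those calls were Lyz1 and Chst3, at 574 and 1020.3 in tumour 3 and at most 14.5 and 32.3 in any other tumour.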
